A study of Homo sapiens with 6 samples.

Results

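Heat shock proteins and chaperonins are the machinery that folds, holds and refolds other proteins, and their transcripts were followed in COV434 cells exposed to the active form of a chemotherapy drug. A member was any gene of the deposited table whose symbol belongs to the HSPA, HSPB, HSPD, HSPE, HSPH, HSP90, DNAJA, DNAJB, DNAJC, CCT, BAG or HSF series, together with TCP1 and HSPBP1, which gave 93 of the 16798 genes in the table. The rule used symbols and no measured value. The members fell into HSP70 (12 genes), HSP110 (3), HSP90 (3), the mitochondrial chaperonin (2), the cytosolic chaperonin TRiC (9), small HSPs (7), DNAJA (4), DNAJB (11), DNAJC (27), BAG proteins with HSPBP1 (7) and heat shock factors (4), and 4 further genes were taken by their symbol alone.

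COV434 is an established human cell line, labelled as granulosa cells, the hormone-producing cells around the oocyte. Total RNA was sequenced from 3 control samples, labelled WT and with no vehicle given, and from 3 samples exposed to 15 µM 4HC for 24 h, which carry CTX in the genotype and treatment fields of the labels. CTX is cyclophosphamide, and 4HC is a pre-activated form of it that releases the DNA-alkylating metabolite without liver enzymes. All samples came from 1 cell line, and the labels do not say that the replicates were separate cultures, so the p-values measure only the spread between these samples, which may be technical.

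The expected counts of a library, which are estimated reads per gene, summed to between 16133786 and 16702316, and replicates differed by a biological coefficient of variation of 0.0277. Expression is given as CPM, library-scaled counts after TMM normalization, and levels of different genes are compared only as the deposited TPM, which is corrected for transcript length. Both scales are relative to the RNA sequenced, so that less RNA per cell and fewer cells of a kind cannot be told apart. Of 14 granulosa markers, 12 were in the table, 7 of these had at most 3 counts in every library, and 0 of the 4 that could be tested were upregulated. WT1 was the 1 marker downregulated, by -0.35 on the log2 scale, and the summed TPM of the list was 158.9 to 166.97 in control and 132.16 to 138.38 in 4HC. Most of that sum was WT1, at means of 133 TPM in control and 106 TPM in 4HC. HSD17B1 (22.5 and 22.2 TPM) and AMH (5.34 and 5.39 TPM) were not called. FOXL2 and FSHR, which define granulosa cells, were among the markers near 0. Of 11 markers of immune, endothelial, fibroblast, epithelial and germ cells, 5 were tested and 0 were called, with a summed TPM of 104.83 to 110.83 in control and 103.79 to 108.05 in 4HC. Most of this was the fibroblast marker COL3A1, at means of 85.1 TPM in control and 82.9 TPM in 4HC. The oocyte marker ZP3 had 18.7 and 19.6 TPM. The other markers of these 2 cell types were near 0. In control and 4HC the fibroblast marker COL1A1 had 0.257 and 0.357 TPM. The oocyte markers GDF9 (1.00 and 0.627 TPM) and DDX4 (0.0133 and 0.03 TPM) were also low. The part of these cell markers in the results below was not tested.

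Chaperones of the HSP70 class bind short hydrophobic stretches of unfolded proteins and release them in a cycle driven by ATP, J-domain proteins of the DNAJ classes deliver clients and trigger the cycle, and HSP110 and BAG proteins exchange the nucleotide. HSP90 takes over clients that are close to their final shape, such as kinases and steroid receptors, while the chaperonins enclose a folding protein in a barrel. Small HSPs hold unfolded proteins without ATP. The stress-inducible members are switched on by heat shock factor 1, which binds inverted repeats of a short unit in promoters, the heat shock element.

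Transcripts of the abundant folding machines were lower in 4HC-treated cells, by small fractions of their level. Of the 93 members, 81 had enough counts for the test, and 33 of these were downregulated and 13 upregulated at an adjusted p-value under 0.05, while 35 were not called. The background over all 12368 genes tested was 17.1% downregulated and 19.2% upregulated. The median log2 fold change of the tested members was -0.10, against 0.0047 over all genes tested. No member changed by 2-fold or more (0 of 81), where 1.16% of all genes tested did, although DNAJC22 reached a log2 fold change of 1.19 with 1 library left out. Of the called members, 5 upregulated and 7 downregulated ones changed by at least 1.2-fold, where 10.6% of all genes tested were upregulated and 4.54% downregulated by that much. The control and 4HC libraries did not overlap for 47 of the 81, where 45.3% of all genes tested did not overlap. Summed over all members, the deposited TPM was 12446, 12126 and 12662 in control and 11024, 10979 and 11129 in 4HC, or 1.24% and 1.10% of all TPM. The 12 members left out of the test had too few counts and were DNAJA4, DNAJB7, DNAJB13, DNAJC5B, DNAJC15, DNAJC25-GNG10, HSF5, HSPA6, HSPB6, HSPB7, HSPB8 and HSPB9.

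**Figure D1:**
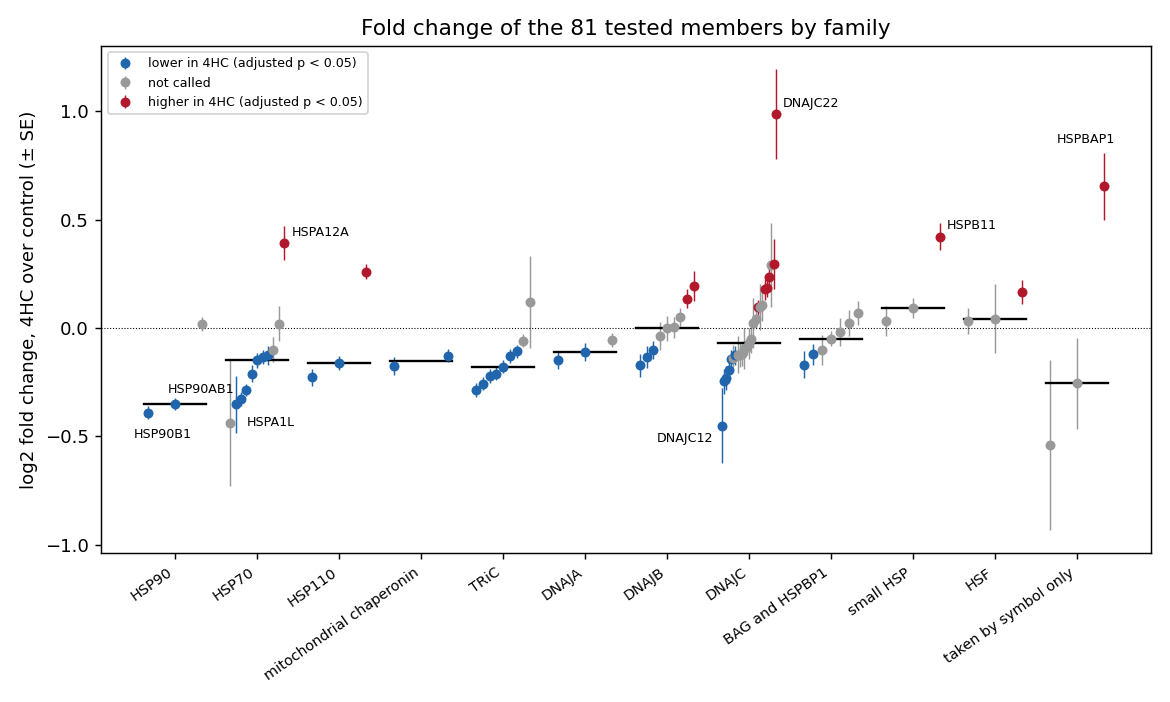
Log2 fold change of 4HC over control (y axis, bars are ± SE) for the 81 tested members, grouped by family along the x axis, with blue for downregulated, red for upregulated and grey for genes not called, and a black line at each family's median. The HSP90, HSP70, mitochondrial chaperonin and TRiC points lie mostly under 0, and DNAJC22 is the highest at 0.99.

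The level of a member in control cells went with its direction. Of the 25 members with at least 100 TPM in control, 19 were downregulated and 1, DNAJC8, was upregulated, with a median log2 fold change of -0.15. Among all 1391 genes of at least 100 TPM, 34.0% were downregulated and 19.3% upregulated, with a median of -0.03. Of the 68 members under 100 TPM, 56 were tested, of which 14 were downregulated and 12 upregulated, with a median of -0.03. Downregulation was thus also more frequent among abundant genes as a whole (34.0%) than among all genes tested (17.1%).

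**Figure D2:**
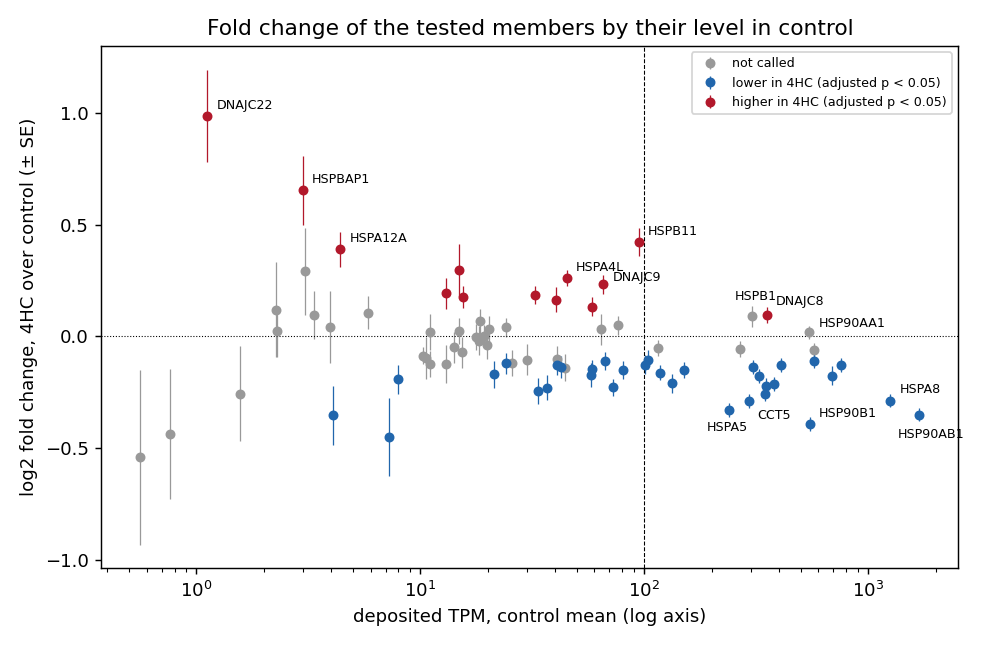
Log2 fold change of 4HC over control (y axis, bars are ± SE) against the control mean of the deposited TPM (x axis, log scale) for the 81 tested members, with a dashed line at 100 TPM. To the right of the line 19 of 25 points are downregulated (blue) and 1 is upregulated (red).

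HSP90 transcripts split between the genes. HSP90AB1, the constitutive cytosolic HSP90 and the most abundant member at 1693 TPM in control (chromosome 6, 44246194 to 44253883, GRCh38.p13), was at 2462, 2399 and 2501 CPM in control and 1915, 1938 and 1924 CPM in 4HC. All 4HC libraries were under all control libraries, and the log2 fold change was -0.35 ± 0.0283 (SE, adjusted p = 6.76e-15), a level 21.5% lower. HSP90B1, the HSP90 of the endoplasmic reticulum (GRP94, chromosome 12, 103930107 to 103949694), was at 884, 876 and 863 CPM in control and 649, 670 and 681 CPM in 4HC. It had the largest fall of the called members over 5 CPM with separate groups, at -0.39 ± 0.0303 on the log2 scale (adjusted p = 1.40e-15).

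HSP90AA1, the stress-inducible cytosolic HSP90, was at 1030, 1001 and 1049 CPM in control and 1005, 1053 and 1061 CPM in 4HC. Its groups overlapped and its log2 fold change of 0.02 ± 0.0303 was not called (adjusted p = 0.677). The ratio of HSP90AB1 to HSP90AA1 in TPM, which does not depend on the scaling between libraries, was 3.10, 3.11 and 3.10 in control and 2.47, 2.39 and 2.35 in 4HC. The 2 groups did not overlap, and the smallest p that an exact two-sided permutation test of 3 against 3 can give is 0.1. Nearly all expected counts of HSP90AB1 fell on 1 transcript, 99.5% in both groups.

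**Figure D3:**
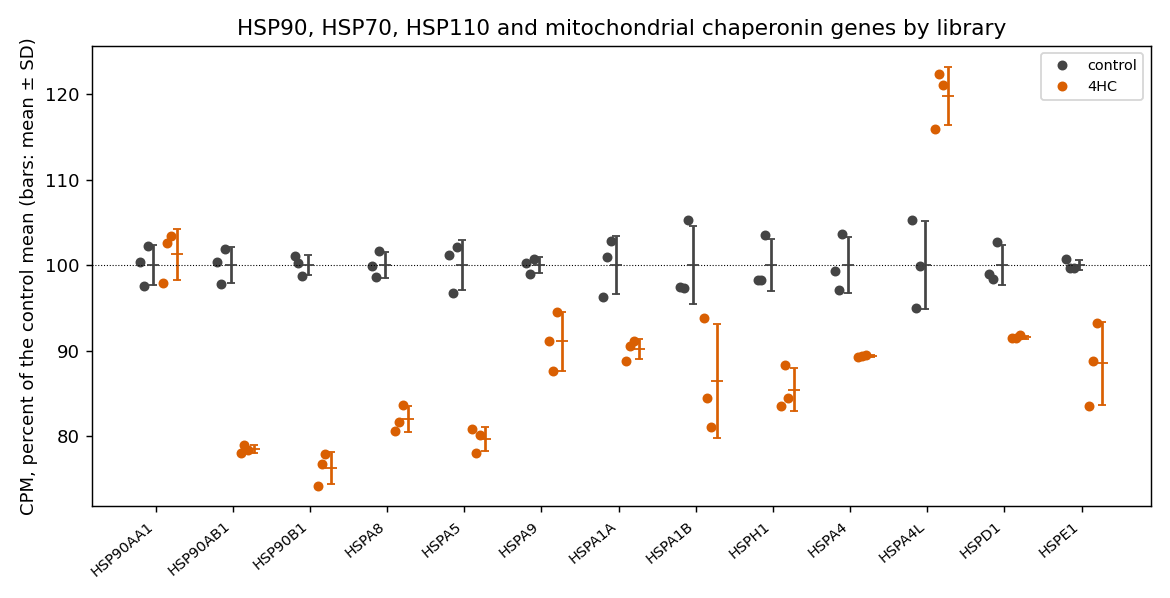
CPM of each library as a percent of the gene's control mean (y axis) for 13 genes of the HSP90, HSP70, HSP110 and mitochondrial chaperonin families (x axis), with control in grey, 4HC in orange, and the mean ± SD beside the 3 points. HSP90AA1 overlaps between groups, HSPA4L lies above its control libraries, and the other 11 genes lie below theirs.

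The HSP70 family had 7 downregulated genes and 1 upregulated gene among 11 tested. Over all genes tested 17.1% were downregulated and 19.2% upregulated, and 34.0% of genes of at least 100 TPM were downregulated. With HSPA1A and HSPA1B, which share reads, summed into 1 row, 6 genes of the family were downregulated. HSPA8 (HSC70), the constitutive cytosolic HSP70 and the most abundant of the family at 1256 TPM, was at 1584, 1563 and 1612 CPM in control and 1279, 1295 and 1327 CPM in 4HC. The log2 fold change was -0.29 ± 0.029 (adjusted p = 1.05e-11) and the groups did not overlap. HSPA5 (BiP), the HSP70 of the endoplasmic reticulum and the sensor partner of the unfolded protein response, was at 562, 537 and 566 CPM in control and 448, 433 and 444 CPM in 4HC. Its log2 fold change was -0.33 ± 0.0318 (adjusted p = 2.68e-12), close in size to that of HSP90B1, which folds proteins in the same compartment. HSPA9 (mortalin), the mitochondrial HSP70 that pulls proteins through the inner membrane, was at 810, 800 and 813 CPM in control and 736, 707 and 763 CPM in 4HC, a smaller fall of -0.13 ± 0.031 on the log2 scale (adjusted p = 4.29e-04).

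The inducible HSP70 pair was downregulated. HSPA1A was at 195, 205 and 209 CPM in control and 180, 184 and 185 CPM in 4HC, and HSPA1B at 184, 184 and 199 CPM in control and 177, 160 and 153 CPM in 4HC. Each control library was above each 4HC library for both genes, with log2 fold changes of -0.15 ± 0.036 (adjusted p = 7.60e-04) and -0.21 ± 0.0412 (adjusted p = 4.67e-05). The pair encodes almost the same protein and reads cannot be assigned to 1 of them with certainty, so the counts were also summed, which gave -0.18 ± 0.0335 (adjusted p = 2.38e-05). HSPA6, an HSP70 that is nearly silent in unstressed cells and rises steeply on heat shock, had 1, 2 and 6 counts in control and 13, 10 and 6 counts in 4HC and was not tested. When no filter on low counts was applied its log2 fold change was 1.64 ± 0.563 (adjusted p = 0.0178), from at most 13 counts in a library.

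Promoters are printed for HSPA8, HSPA1A and HSPA6, a constitutive and a pair of inducible HSP70 genes, because all 3 hold matches to the heat shock element. Each is the 250 bases before the RefSeq start in GRCh38.p14, read 5′ to 3′ on the gene's strand, with capitals for matches to GAANNTTC or TTCNNGAA, which overlap where units run on and read the same on both strands.
HSPA8 (chr11:123062137-123062386, minus strand): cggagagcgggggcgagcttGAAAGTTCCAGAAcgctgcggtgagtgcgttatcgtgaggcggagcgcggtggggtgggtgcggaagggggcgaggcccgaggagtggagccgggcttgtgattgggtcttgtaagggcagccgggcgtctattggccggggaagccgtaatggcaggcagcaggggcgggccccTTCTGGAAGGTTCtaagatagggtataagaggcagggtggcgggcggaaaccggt
HSPA1A (chr6:31815293-31815542, plus strand): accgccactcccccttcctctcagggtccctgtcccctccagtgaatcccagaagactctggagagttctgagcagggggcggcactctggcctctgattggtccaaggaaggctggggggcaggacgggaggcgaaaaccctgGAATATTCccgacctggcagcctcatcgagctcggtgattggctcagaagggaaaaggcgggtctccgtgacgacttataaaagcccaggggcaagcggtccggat
HSPA6 (chr1:161524290-161524539, plus strand): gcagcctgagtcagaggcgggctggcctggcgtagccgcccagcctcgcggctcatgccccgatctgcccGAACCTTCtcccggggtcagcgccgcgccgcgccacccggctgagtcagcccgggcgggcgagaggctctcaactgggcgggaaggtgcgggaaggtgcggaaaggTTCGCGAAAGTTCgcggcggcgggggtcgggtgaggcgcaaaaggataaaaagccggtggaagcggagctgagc
HSPA8 had 4 matches, starting 230, 225, 55 and 50 bases before the start, HSPA1A had 1 at 106, and HSPA6 had 3 at 180, 74 and 69.

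Of the 93 members, 81 were matched to a RefSeq promoter window of 250 bases before to 50 after the start, and 17 of these windows held a match (20.99%), against 13.69% of all 27305 windows in the table. A match was present in 9 of 31 downregulated members, 0 of 10 upregulated members, 3 of 29 tested members that were not called and 5 of 11 members that were not tested. Matches with a further inverted unit directly after them were in DNAJA1, DNAJB6, HSPA6 and HSPA8, and in 0.4871% of all windows. These are letters in a window and say nothing of whether a factor was bound. The pattern is strict, and a window without a match can belong to a gene that heat shock factor 1 induces. The windows of HSPH1, HSP90AA1, DNAJB1, DNAJB4 and BAG3, given below as such genes, held no match. The near-identical pair HSPA1A and HSPA1B are both among the 9 downregulated members with a match.

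Of the remaining HSP70 genes, HSPA13 and HSPA14 lay near 41 TPM in control and the others were lower. HSPA12A, a distant relative of HSP70, was the upregulated gene of the family, at 14.7, 16.6 and 14.3 CPM in control and 19.9, 20.6 and 19.2 CPM in 4HC (0.39 ± 0.0784, adjusted p = 6.68e-05), with no overlap. HSPA1L, a testis-enriched HSP70 beside HSPA1A, was at 6.47, 6.03 and 6.76 CPM in control and 4.95, 4.87 and 5.26 CPM in 4HC (-0.35 ± 0.132, adjusted p = 0.0320). That call was lost without control 1 (adjusted p = 0.0725), control 3 (0.107), 4HC 1 (0.0763) or 4HC 2 (0.0869). HSPA12B, the endothelial relative of HSPA12A, had the largest fitted change of the family at -0.44 ± 0.292 but lay at 1.54, 1.11 and 1.33 CPM in control and 0.724, 0.802 and 1.41 CPM in 4HC, overlapped and was not called (adjusted p = 0.252). HSPA13, a microsomal HSP70, was downregulated by -0.13 with overlapping groups (adjusted p = 0.0236) and lost its call without control 1 (adjusted p = 0.132), control 3 (0.0522) or 4HC 1 (0.188), while HSPA14 (-0.10) and HSPA2 (0.02) were not called.

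The HSP110 genes, which act as nucleotide exchange factors for HSP70, moved in different directions. HSPH1 was at 141, 140 and 148 CPM in control and 119, 126 and 121 CPM in 4HC (-0.23 ± 0.0393, adjusted p = 5.52e-06), and HSPA4, the most abundant of the 3 at 118 TPM, was at 336, 328 and 350 CPM in control and 301, 302 and 302 CPM in 4HC (-0.16 ± 0.0332, adjusted p = 9.27e-05). HSPA4L, a relative with high expression in testis, was at 248.7, 224 and 236 CPM in control and 274, 289 and 286 CPM in 4HC (0.26 ± 0.036, adjusted p = 5.12e-08). None of the 3 overlapped between groups. The TPM ratio of HSPA4L to HSPA4 was 0.418, 0.370 and 0.361 in control and 0.510, 0.504 and 0.516 in 4HC, so the lowest 4HC library was above the highest control library.

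The mitochondrial chaperonin pair fell together. HSPD1 (HSP60), the barrel, was at 934, 927 and 969 CPM in control and 863, 862 and 866 CPM in 4HC (-0.13 ± 0.0298, adjusted p = 5.39e-04). HSPE1 (HSP10), its lid, was at 119, 118 and 118 CPM in control and 99.2, 105 and 111 CPM in 4HC (-0.18 ± 0.0416, adjusted p = 6.24e-04). Neither gene overlapped between groups. The genes lie beside each other on chromosome 2, at 197485845 to 197500274 and 197500379 to 197503449, with 104 bases between them. Per length their control levels were close, at 754 and 689 TPM. HSPE1 has 26 and HSPD1 17 named pseudogenes in GENCODE, and HSPA8 17, which can share reads with their parent genes.

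TRiC, the cytosolic chaperonin that folds actin and tubulin, is a double ring of 8 different subunits, and the ring has them in equal number. All 8 had a negative log2 fold change, all 8 had 4HC libraries under every control library, and 7 passed the test, with a median of -0.19. Over all genes tested, the groups did not overlap for 45.3%, and 17.1% were downregulated. All 8 subunit genes lay above 100 TPM in control. Of all 1391 genes of at least 100 TPM, 827 did not overlap and 34.0% were downregulated. CCT5 was at 560, 556 and 573 CPM in control and 471, 454 and 458 CPM in 4HC, the largest fall of the subunits (-0.29 ± 0.0312, adjusted p = 8.80e-11). TCP1 (CCT1) was at 457, 443 and 463 CPM in control and 381, 380 and 381 CPM in 4HC (-0.26 ± 0.0318, adjusted p = 3.35e-09). Both had the larger falls of the 8 subunits.

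CCT2 was at 366, 354 and 369 CPM in control and 307, 314 and 314 CPM in 4HC (-0.22, adjusted p = 2.48e-07). CCT6A was at 566, 547 and 562 CPM in control and 473, 479 and 494 CPM in 4HC (-0.21, adjusted p = 2.58e-07). CCT4 was at 435, 437 and 434 CPM in control and 386, 377 and 392 CPM in 4HC (-0.18, adjusted p = 9.54e-06). The other subunits fell less. CCT8 was at 412, 403 and 414 CPM in control and 375, 370 and 380 CPM in 4HC (-0.13, adjusted p = 1.09e-03). CCT7 was at 574, 553 and 573 CPM in control and 522, 527 and 528 CPM in 4HC (-0.11, adjusted p = 4.28e-03). CCT3, the most abundant subunit transcript at 574 TPM, was at 623, 610 and 624 CPM in control and 595, 597 and 591 CPM in 4HC, and its change of -0.06 ± 0.0303 was not called (adjusted p = 0.122), although its libraries did not overlap. DESeq2 called it (adjusted p = 0.0446).

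CCT6B, a testis form of the CCT6A subunit, was low, with 26 to 41 counts in a library, at 2.53, 1.60 and 2.11 CPM in control and 2.17, 2.41 and 2.20 CPM in 4HC, and was not called (0.12, adjusted p = 0.698). Summed over the 9 genes, TRiC took 3275, 3166 and 3305 TPM in control and 2895, 2855 and 2903 TPM in 4HC, 11.2% lower. The falls of the summed TPM of HSP90 (18.0%) and HSP70 (16.1%) were larger, and that of the mitochondrial chaperonin was 10.7%.

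**Figure D4:**
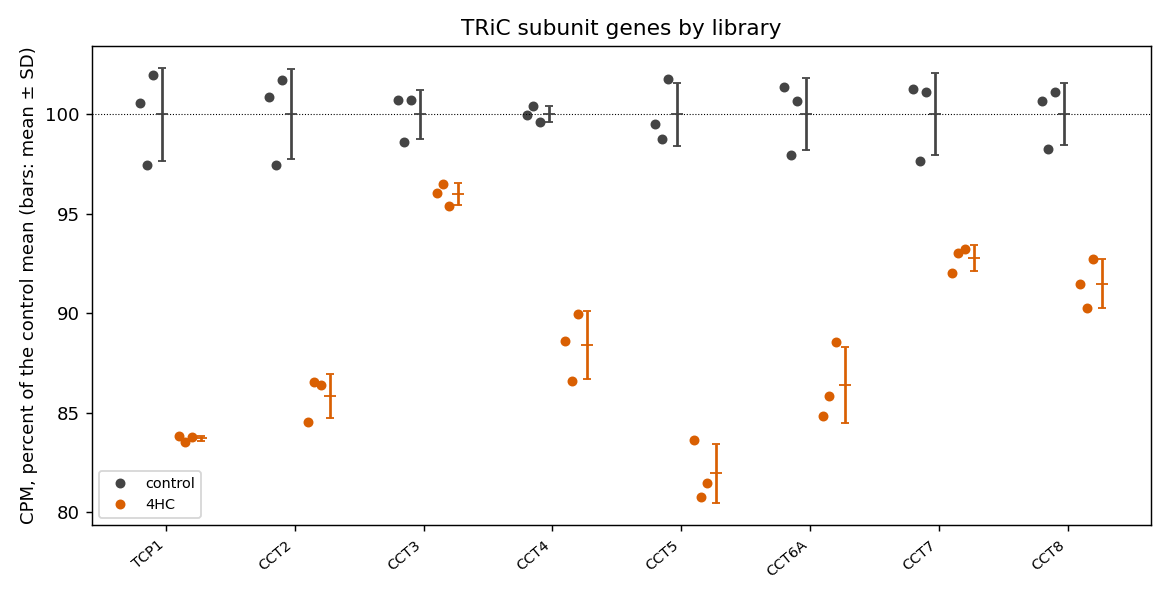
CPM of each library as a percent of the gene's control mean (y axis) for the 8 subunit genes of TRiC (x axis), with control in grey, 4HC in orange, and the mean ± SD beside the 3 points. For each of the 8 genes the 4HC points lie under the control points, from CCT3 with the smallest to CCT5 with the largest distance.

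J-domain genes were called in both directions, and the DNAJC counts were near the 17.1% downregulated and 19.2% upregulated of all genes tested. DNAJA had 2 downregulated genes of 3 tested, DNAJB had 3 downregulated and 2 upregulated of 9, and DNAJC had 6 of each among 25. DNAJA1, the main cytosolic partner of HSC70 in its class, was at 346, 338 and 355 CPM in control and 321, 332 and 347 CPM in 4HC, overlapped, and was not called (-0.06, adjusted p = 0.198). DNAJA3, its mitochondrial relative (TID1), was at 119, 121 and 118 CPM in control and 110, 111 and 102 CPM in 4HC (-0.15 ± 0.041, adjusted p = 3.16e-03), with no overlap. DNAJA2 was downregulated by -0.11 (adjusted p = 0.0278), which was lost without control 1 (adjusted p = 0.117), control 2 (0.057), 4HC 1 (0.0889) or 4HC 2 (0.0671).

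DNAJB1 (HSP40), a classical heat shock target, was at 95.2, 95.5 and 95.7 CPM in control and 94.9, 99.3 and 102 CPM in 4HC, which overlapped and was not called (0.05 ± 0.0421, adjusted p = 0.379). DNAJB4, its close relative, was at 20.0, 21.9 and 22.9 CPM in control and 23.6, 24.2 and 26.2 CPM in 4HC (0.19 ± 0.0695, adjusted p = 0.0250), a call lost without control 1 (adjusted p = 0.174) or 4HC 3 (0.128), and with DESeq2 (0.140). DNAJB6, which suppresses aggregation of polyglutamine proteins and is the most abundant of its class at 104 TPM, was at 98.4, 102 and 103 CPM in control and 93.6, 97.1 and 92.3 CPM in 4HC (-0.10 ± 0.0419, adjusted p = 0.0474). That call was lost without control 2 (0.0972), control 3 (0.167), 4HC 1 (0.0824) or 4HC 3 (0.139), each an adjusted p.

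Shares of transcripts in the authors' estimate were compared between groups without a test. Of 55 members with more than 1 transcript and at least 50 counts in every library, 12 had a transcript of at least 5% whose share did not overlap between groups. The same count was not made over all genes, so it has no background and is not read as a result about the members. The largest move was in DNAJC27, whose main transcript took 72.6 ± 1.39% of the gene's counts in control and 87.5 ± 3.94% in 4HC (SD, n = 3). In DNAJB6, which is far more abundant, the transcript of its short isoform took 49.8 ± 0.657% of the gene's counts in control and 45.9 ± 2.37% in 4HC (SD, n = 3), and that of the long isoform 41.0 ± 1.88% and 44.7 ± 1.64%. Neither pair of groups overlapped, and no test was made because the estimator shares reads between isoforms. Of the other DNAJB genes, DNAJB5 was upregulated by 0.13 (adjusted p = 0.0122), and DNAJB11 (-0.17, adjusted p = 9.31e-03), a cofactor of BiP, and DNAJB2 (-0.14, adjusted p = 0.0302), a neuronal J-domain protein, were downregulated. The call of DNAJB5 was lost without control 1 (adjusted p = 0.103), control 3 (0.0617) or 4HC 3 (0.0636), and that of DNAJB11 without control 1 (0.115). That of DNAJB2 was lost without control 2 (adjusted p = 0.195), control 3 (0.0655), 4HC 2 (0.107) or 4HC 3 (0.0547).

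Among DNAJC genes, DNAJC22 had the largest change of all called members, at 1.42, 2.22 and 2.17 CPM in control and 4.16, 2.65 and 4.71 CPM in 4HC (0.99 ± 0.207, adjusted p = 1.28e-04). Its groups did not overlap, but it was among the lowest members tested, and limma on log2(TPM + 1) gave 0.38 and did not call it (adjusted p = 0.0902). DNAJC9, which is also a chaperone of histones H3 and H4, was at 87.1, 82.3 and 83.1 CPM in control and 100.07, 104 and 93.3 CPM in 4HC (0.23 ± 0.0442, adjusted p = 2.75e-05), with no overlap. DNAJC8, a splicing-associated J-domain protein and the most abundant DNAJC at 354 TPM, was at 174, 177 and 180 CPM in control and 183, 191 and 193 CPM in 4HC (0.09 ± 0.0362, adjusted p = 0.0351). Its call was lost when any 1 library other than 4HC 1 was left out, at adjusted p-values of 0.14, 0.069 and 0.05 without control 1, 2 and 3, and 0.124 and 0.13 without 4HC 2 and 3.

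DNAJC5 (0.18, adjusted p = 2.63e-04), the cysteine string protein of vesicles, DNAJC21 (0.18, adjusted p = 3.77e-03, not called by limma on log2(TPM + 1) at an adjusted p of 0.0521), which acts in ribosome maturation, and DNAJC4 (0.30, adjusted p = 0.0404, overlapping groups) were also upregulated. DNAJC1 (-0.25, adjusted p = 6.11e-04) of the endoplasmic reticulum, DNAJC2 (-0.23, adjusted p = 7.58e-04), a ribosome-bound partner of HSP70, DNAJC16 (-0.19, adjusted p = 0.0142), DNAJC11 (-0.15, adjusted p = 4.32e-03) of the mitochondrial membranes, DNAJC7 (-0.13, adjusted p = 0.0178) and DNAJC12 (-0.45, adjusted p = 0.0376), a cofactor for folding aromatic amino acid hydroxylases, were downregulated. DNAJC12 lay between 2.60 and 3.88 CPM in the 6 libraries, and its call held when control 1 was left out but not without any other library (adjusted p = 0.0548 to 0.104). The call of DNAJC16 was lost without control 3 (adjusted p = 0.103) and with DESeq2 (0.075), and that of DNAJC7 without control 1 (0.0823), control 3 (0.0933) or 4HC 2 (0.101). That of DNAJC4 was lost without control 2 (adjusted p = 0.0568), control 3 (0.393), 4HC 1 (0.27) or 4HC 2 (0.0961), with a log2 fold change of 0.15 without control 3. The other 13 tested DNAJC genes were not called and ranged from -0.14 to 0.29, although DNAJC19, a mitochondrial J-domain protein, was called lower without 4HC 2 (adjusted p = 0.0471).

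Of 3 small HSP genes tested, 1 was upregulated, where 19.2% of all genes tested were. HSPB1 (HSP27), the most abundant at 304 TPM, was at 92.4, 98.4 and 94.2 CPM in control and 109, 102 and 92.4 CPM in 4HC, overlapped and was not called (0.09 ± 0.0461, adjusted p = 0.120). Without 4HC 3, which lay at the control level, it was called higher (0.15, adjusted p = 7.69e-03). HSPB11 (chromosome 1, 53916324 to 53946305), which carries the name of the family but works as the intraflagellar transport protein IFT25, was at 23.5, 24.2 and 23.2 CPM in control and 30.3, 33.5 and 31.2 CPM in 4HC. It rose by 0.42 ± 0.0634 on the log2 scale (adjusted p = 3.42e-07) with no overlap. HSPB2 was not called (0.03, adjusted p = 0.760), and HSPB6, HSPB7, HSPB8 and HSPB9 had too few counts for the test.

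BAG proteins release clients from HSP70, and HSPBP1 does the same by another fold. Of these 7 genes 2 were downregulated and 0 upregulated, where 17.1% of all genes tested were downregulated and 19.2% upregulated. With 7 genes these counts are not read as a result about the family. The groups were free of overlap for 0 of the 7. BAG2 was at 36.5, 34.5 and 32.04 CPM in control and 28.9, 32.8 and 30.0 CPM in 4HC, overlapped, and had a log2 fold change of -0.17 ± 0.0622 (adjusted p = 0.0275), which was lost without control 1 (adjusted p = 0.166), control 2 (0.0553), 4HC 1 (0.127) or 4HC 3 (0.0658). BAG3, the stress-induced member that links HSP70 to autophagy, was at 24.8, 26.9 and 28.4 CPM in control and 26.4, 26.5 and 26.1 CPM in 4HC (-0.02, adjusted p = 0.853). BAG6, the most abundant at 115 TPM and a guard of tail-anchored membrane proteins, was at 248.7, 253 and 240.4 CPM in control and 245, 239 and 233 CPM in 4HC (-0.05, adjusted p = 0.262). BAG5 was downregulated by -0.12 (adjusted p = 0.0462) with overlapping groups, which was lost without control 2 (adjusted p = 0.104), control 3 (0.207), 4HC 1 (0.0581) or 4HC 2 (0.240), while BAG1 (0.07), BAG4 (0.02) and HSPBP1 (-0.10) were not called.

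HSF1, the master regulator of the heat shock response, was at 45.9, 49.0 and 46.9 CPM in control and 57.9, 53.8 and 47.3 CPM in 4HC (0.17 ± 0.0566, adjusted p = 0.0179). 4HC 3 lay among the control libraries. The call was lost without control 1 (adjusted p = 0.0834), control 3 (0.0653), 4HC 1 (0.254) or 4HC 2 (0.0692), and with DESeq2 (0.0966). HSF2 (0.03) and HSF4 (0.04) were not called. HSF1 acts mainly through its protein's state, which transcript levels do not show. Some genes that it is known to induce are given here, picked by hand and not as a full list. HSPA1A, HSPA1B and HSPH1 were downregulated, and HSP90AA1, DNAJB1, HSPB1 and BAG3 were not called. DNAJB4 was upregulated, but not called with DESeq2. HSPA6 had too few counts for the test but was called higher when no filter was applied (1.64, adjusted p = 0.0178).

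The 4 genes taken by symbol alone are not chaperones of these families. HSPBAP1, which binds HSPB1, was at 3.02, 3.75 and 3.20 CPM in control and 5.25, 5.43 and 5.02 CPM in 4HC (0.65 ± 0.155, adjusted p = 6.22e-04), with no overlap. HSF2BP, a partner of HSF2 and of BRCA2 in meiosis, was not called (-0.26, adjusted p = 0.364), nor was HSPE1-MOB4 (-0.54, adjusted p = 0.293), a readthrough transcript that overlaps HSPE1 and cannot be separated from it with certainty. HSPE1-MOB4 was at 2.59, 1.11 and 0.241 CPM in control and 0.845, 0.432 and 1.41 CPM in 4HC, and was called lower without control 3 (-1.04, adjusted p = 0.0212).

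Genes that work with the members were counted in lists, to be read beside the 17.1% downregulated and 19.2% upregulated of all genes tested. Among all genes of at least 100 TPM in control, a level that part of each larger list reached, 34.0% were downregulated and 19.3% upregulated. Of 17 HSP90 co-chaperones 8 were downregulated and 1 upregulated, with a median of -0.10. CHORDC1, an HSP90-binding protein, had the largest change, at 57.1, 55.8 and 53.2 CPM in control and 39.5, 42.1 and 44.0 CPM in 4HC (-0.40 ± 0.0533, adjusted p = 1.76e-08). STIP1 (HOP, -0.28), which bridges HSP70 and HSP90, FKBP4 (-0.29), which serves steroid receptors, and AHSA1 (-0.21), which activates the HSP90 ATPase, were downregulated as well, and UNC45A (0.15), a myosin chaperone, was upregulated. Of 11 genes of prefoldin and other TRiC helpers, 2 were downregulated and 2 upregulated, with a median of -0.06. That is 18.2% each, near the share of all genes tested. The prefoldin subunit PFDN6 had the largest called change, at 34.3, 35.2 and 36.4 CPM in control and 28.97, 29.5 and 30.5 CPM in 4HC (-0.25 ± 0.059, adjusted p = 5.65e-04).

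Of 21 genes of folding in the endoplasmic reticulum and the unfolded protein response, 8 were downregulated and 2 upregulated, with a median of -0.08. XBP1, a transcription factor of that response, was at 96.6, 95.4 and 90.2 CPM in control and 73.2, 76.7 and 72.3 CPM in 4HC (-0.35 ± 0.0444, adjusted p = 8.30e-09), while CALR (0.11, adjusted p = 3.87e-03), a lectin chaperone, and DDIT3 (CHOP, 0.25, adjusted p = 3.76e-03), a stress-induced transcription factor, were upregulated. Of 11 mitochondrial chaperones and proteases, 3 were downregulated and 1 upregulated (27.3% and 9.09%), with a median of -0.07. GRPEL1, the nucleotide exchange factor of HSPA9, was at 110, 104 and 109 CPM in control and 80.6, 84.2 and 87.7 CPM in 4HC (-0.35 ± 0.043, adjusted p = 2.05e-09). Of 4 J-domain genes without a DNAJ symbol 1 was downregulated, SEC63 of the protein translocon, at 162, 157 and 157 CPM in control and 146, 147 and 149 CPM in 4HC (-0.11 ± 0.037, adjusted p = 0.0201), a call lost without control 1 (adjusted p = 0.0886) or 4HC 2 (0.0558).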

How the data were processed

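RNA of 3 control and 3 4HC-treated samples of COV434 cells was sequenced. Per the labels the authors filtered reads with SOAPnuke. The submitters' processing notes name HISAT2, Bowtie2, RSEM 1.3.1, DESeq2 1.4.5 and GRCh38.p13. The authors deposited an expected count per gene and transcript without normalization, and 85.5% of the gene values were whole. They also deposited TPM, scaled to transcript length and to the same total in each library. Their DESeq2 fold changes, p-values and q-values, and a second gene table with the same values, were not used.

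Expected counts were rounded and fitted with edgeR 4.0.16 (R 4.3.3), after TMM normalization and filterByExpr, by a quasi-likelihood test of condition with no other term. Adjusted p-values are Benjamini-Hochberg over all 12368 genes tested, and SE is the log2 fold change divided by the square root of F. The script was first tested on simulated counts. A count of 3 in a library was 0.18 to 0.186 CPM, and depth covers counting error only. Chi-square per gene between replicates of a group was 1.70 to 2.46, so none were copies of the same counts. It was not compared with a known repeat of a library and cannot show how the replicates were made.

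Members and lists were chosen with earlier results of these data known. Per-sample values are given for the 5 called members that rose most and the 5 that fell most (at least 5 CPM, groups not overlapping), for the largest change and the highest TPM of each family, for the defining genes, and for the largest called change of each list. HSPA6, STIP1, FKBP4, AHSA1, UNC45A, CALR, DDIT3, WT1 and DNAJC27 were chosen after their values were seen.

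Alternatives were DESeq2 1.42.0, its size factors in edgeR, library size alone, no filter, at least 10 counts per sample, a replicate block, limma 3.58.1 on log2(TPM + 1) or log2(TPM + 0.1), an adjusted p under 0.01, a fold of 1.2, and leaving out each sample. Summing HSPA1A and HSPA1B was chosen after seeing the data. Promoters came from RefSeq and pseudogene names from GENCODE. Python 3.11.15, pandas 2.3.3 and matplotlib 3.10.9 were used. For 9 members placed on alternate loci or scaffolds, HSPA1A and HSPA1B among them, the coordinates of the table were not used.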

Additional observations from a re-analysis of the deposited data

How the results depend on the processing

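Against 13 upregulated and 33 downregulated members, upregulated members numbered 8 with limma on log2(TPM + 1), 8 on log2(TPM + 0.1), 8 at an adjusted p under 0.01 (14.2% of all genes) and 5 at a fold of at least 1.2, where 7 were downregulated. Downregulated members numbered 31 in each limma setting and 23 at an adjusted p under 0.01 (11.5% of all genes). With library size alone 13 were upregulated and 26 downregulated (22.0% and 14.0% of all genes), and 7 calls were lost. DESeq2 called 9 upregulated and 26 downregulated (9.7% and 9.56% of all genes) and lost BAG2, BAG5, DNAJB2, DNAJB4, DNAJB6, DNAJC4, DNAJC8, DNAJC12, DNAJC16, HSF1, HSPA13 and HSPA1L. It gained CCT3. Leaving out 1 sample gave 9 to 12 upregulated and 26 to 30 downregulated (15.6% to 18.2% and 13.5% to 15.9% of all genes). With limma 15.5% of all genes were upregulated and 14.3% downregulated. Of the 46 called members, 30 kept their call in all 6 such fits, 28 in all settings with a refit, and 0 changed sign in any of these. The members' median was -0.08269 with library size alone and -0.1021 to -0.08758 with 1 sample left out. The DNAJA median was -0.09016 and -0.134 to -0.09542, and the DNAJC median -0.05074 and -0.09423 to -0.02463, in the same order. With 1 sample left out, the BAG and HSPBP1 median was -0.07347 to -0.02086, the HSF median 0.02543 to 0.1358, and the median of the genes taken by symbol alone -0.5046 to 0.411. The last of these, -0.26 over 3 genes, was 0.1968 with at least 10 counts in every sample, which leaves fewer genes. Replicate numbers are shared between groups, and deviations of same-numbered samples correlated at 0.00866, 0.0694 and 0.0302. Control 1 correlated best with 4HC 3 (0.0455), and controls 2 and 3 with the 4HC sample of the same number. Correlations this near 0 cannot show whether the samples were paired. With the replicate block 13 members were upregulated and 30 downregulated, and BAG5, DNAJB6 and HSPA13 lost their call. Other causes of these changes were not tested. Depth limits members near 2 CPM, such as DNAJC22 and CCT6B.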
